A study of Mus musculus with 8 samples.

Results

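The difference in UVB response between EGFP+ melanocytes and tdTomato+ skin cells sorted from the same mice was measured gene by gene. For each gene, the change with UV in tdTomato+ cells was subtracted from the change with UV in EGFP+ cells, on the log2 scale. Genes whose mean normalized read count reached 1 in any group were tested, 18070 of the 24421 listed. A negative difference means that the level with UV, relative to no UV, was lower in EGFP+ than in tdTomato+ cells.

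All 4 mice were C57BL/6J animals with Tyr:CreERT2 and the ROSA mTmG reporter, in which every cell makes membrane tdTomato until Cre, here tamoxifen-inducible and driven by the promoter of the pigment gene tyrosinase, switches it to membrane EGFP. EGFP therefore marks cells in which that promoter was active when tamoxifen was given and their descendants, and melanocytes that escaped recombination stay in the tdTomato+ gate. Tamoxifen was given daily for 10 days from postnatal day 21, and the back was shaved and depilated on day 50. Mice 1 and 2 received mock light, and mice 3 and 4 received UVB at 150 mJ/cm2, for 3 days. Back skin was taken on day 54, so the depilation is shared by all groups. Each mouse gave 1 EGFP+ and 1 tdTomato+ library, so each population has 2 libraries per light condition.

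Melanocytes make melanin in melanosomes and pass these to the keratinocytes around them. UVB damages DNA in both cell types, and keratinocytes respond with secreted factors that act on melanocytes and with a thicker, wound-like epidermis. The tdTomato+ gate holds keratinocytes, fibroblasts, immune cells and others, so in these bulk libraries fewer cells of a type and less RNA per cell cannot be told apart.

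Libraries held 11186363 to 16711981 reads. Both populations carried the markers of their labels: 8 melanocyte markers (Tyr, Tyrp1, Dct, Pmel, Mlana, Mitf, Sox10 and Kit) summed to between 523784 and 615877 normalized reads in EGFP+ libraries, and Krt14 stood between 100900 and 136700 in tdTomato+ libraries against 203 to 341 in EGFP+ libraries. The endothelial marker Pecam1 and the leukocyte marker Ptprc were at under 5 in every EGFP+ library. The list of 15 endothelial genes did not separate the populations in this way. It summed to between 870 and 1203 in EGFP+ libraries and between 407 and 4086 in tdTomato+ libraries. In tdTomato+ libraries the 8 melanocyte markers summed to 5571 and 2616 without UV and to 23228 and 44454 with UV, and all 8 were detected in each of them. As a share of the sum in EGFP+ cells of the same mouse, that is 1.06% and 0.448% without UV and 4.11% and 7.22% with UV. Mitf alone overlapped between the arms in tdTomato+ libraries, at 134 and 278 without UV and 247 and 295 with UV. The summed list of melanocyte lineage regulators overlapped there too, at 7955 and 10321 without UV and 8311 and 10544 with UV. The second UV EGFP+ library stood apart, with 11186 detected genes against 14503 to 17076 in the others. Mouse 1 differed from the others in Xist, with 477 and 1103 reads in its libraries against at most 4.

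Across the genome, limma on all 8 libraries called more UV changes in tdTomato+ than in EGFP+ cells, an order that 1 library could reverse: without the first UV EGFP+ library it called 1695 changes in EGFP+ and 164 in tdTomato+ cells. With all libraries, with an adjusted p of 0.05 as the threshold for a call, 63 genes rose in tdTomato+ cells (0.349% of genes tested) and 38 fell (0.21%), while in EGFP+ cells 0 rose (0%) and 3 fell (0.0166%). For the difference itself, 1 gene was called lower in EGFP+ cells (0.00553%) and 0 were called higher (0%), while 1129 genes were lower and 685 higher at an unadjusted p under 0.05. edgeR's quasi-likelihood test on the whole reads behind the deposited values was more permissive, with 57 genes lower (0.315%) and 18 higher (0.0996%), and DESeq2 called 203 lower and 83 higher. All 75 of the edgeR calls were also DESeq2 calls. The precision depended on the level: the median standard error of the difference was 1.67 for genes with a mean of 1 to 50, 0.73 from 50 to 1000 and 0.33 above 1000.

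The UV changes of the 2 populations were weakly correlated across genes. Across the 10770 genes with a mean of at least 50 over the 8 libraries, Pearson's r between the change in EGFP+ and the change in tdTomato+ cells was 0.15, and 54.6% of genes had the same sign in both. Genes are not independent replicates, and both changes come from the same 4 mice, so this is a description. No gene was called in both populations by limma. The 63 genes that rose in tdTomato+ cells had a median change of 2.82 there and of 0.24 in EGFP+ cells, where 40 were positive, 16 negative and 7 at 0. The 38 that fell in tdTomato+ cells had a median of -4.94 there and of -0.02 in EGFP+ cells. In EGFP+ cells 7 of the 63 and 6 of the 38 differed by 1 log2 unit or more. The plot of the change in one population against the other shows this as a cross, with genes spread along each axis and few along the diagonal.

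**Figure D1:**
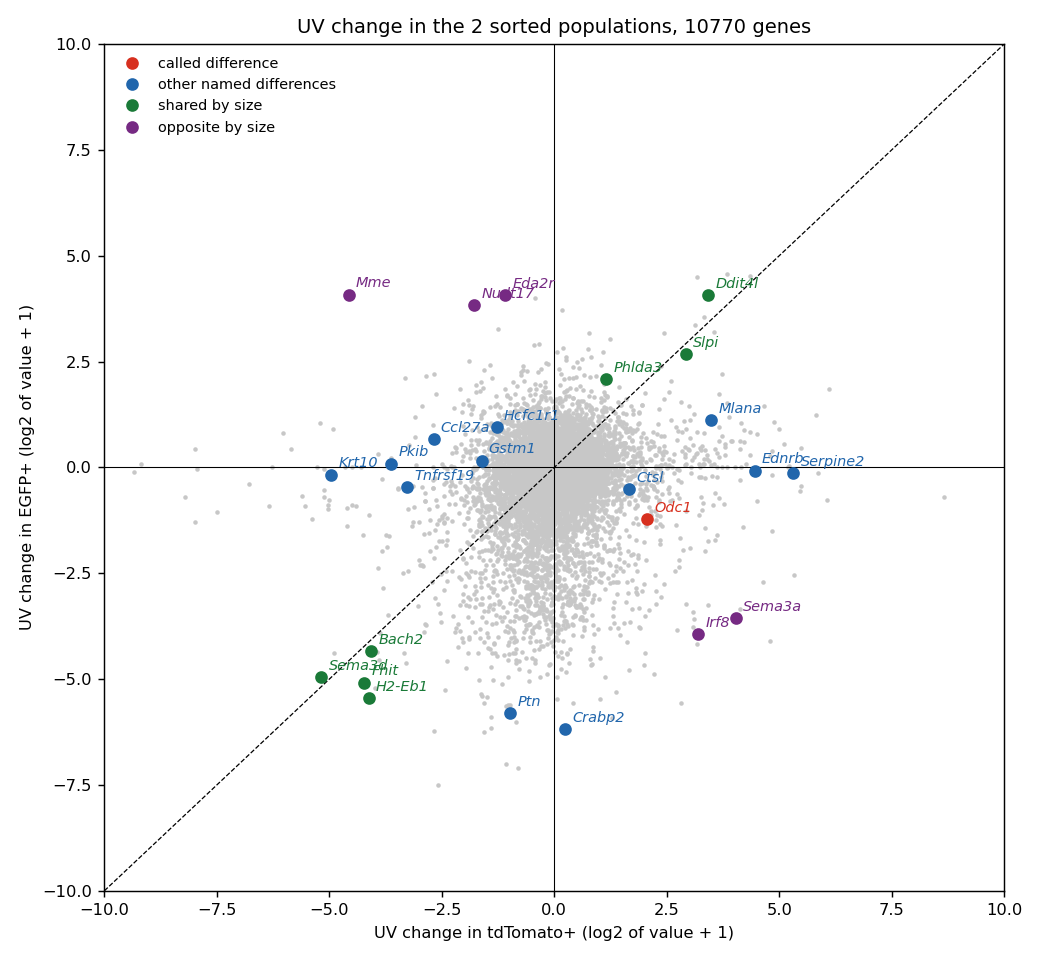
UV change in EGFP+ cells (vertical) against UV change in tdTomato+ cells (horizontal), both as the difference of group means of log2(normalized reads + 1), for the 10770 genes with a mean of at least 50; the dashed line marks equal change. Odc1 lies at 2.06 in tdTomato+ and -1.23 in EGFP+ cells, Serpine2 and Krt10 lie near the horizontal axis, and Ptn and Crabp2 lie far below it.

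The gene called for the difference was Odc1, which encodes ornithine decarboxylase, the rate-limiting enzyme of polyamine synthesis and a known target of Myc. Polyamines such as putrescine and spermidine are needed for growth and protein synthesis, and Odc1 is known to be induced in epidermis by UV and by wounding. In the RefSeq annotation of GRCm38.p6, the assembly also called mm10, Odc1 spans chr12:17544808-17551502 on the plus strand. The 185 bases just before the annotated start, chr12:17544623-17544807, are shown because Odc1 is the called difference, with capitals marking GC boxes, written GGGCGG or its reverse complement.
Odc1: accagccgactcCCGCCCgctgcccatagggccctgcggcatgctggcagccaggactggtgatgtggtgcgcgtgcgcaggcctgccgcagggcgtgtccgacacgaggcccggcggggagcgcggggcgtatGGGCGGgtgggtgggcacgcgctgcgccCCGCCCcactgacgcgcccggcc
This window, from the RefSeq promoter table, holds 3 GC boxes, 1 on the plus and 2 on the minus strand. A GC box was present in 21.8% of the first 185 bases of the 32851 promoters in the table. The E-box CACGTG (in 3.88% of promoters), the TATA box TATAAA (8.55%), the cyclic AMP response element TGACGTCA (0.648%) and the AP-1 site TGANTCA (5.06%), searched on both strands, were not found in these letters, and no motif searched overlapped another here.

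Odc1 stood at 6386 and 6795 normalized reads in EGFP+ cells without UV and at 3498 and 2268 with UV. In tdTomato+ cells it stood at 3238 and 3143 without UV and at 13996 and 12662 with UV. The groups did not overlap in either population, and they moved apart in opposite directions: without UV the level was higher in EGFP+ cells in both mice, and with UV it was higher in tdTomato+ cells in both mice. Within a mouse, the log2 ratio of EGFP+ to tdTomato+ was 0.98 and 1.11 without UV and -2.00 and -2.48 with UV. The difference in UV change was -3.29 ± 0.30 (SE, n = 2 mice per arm), with an adjusted p of 0.0496 in limma. Its parts were a rise of 2.06 ± 0.21 in tdTomato+ cells (adjusted p = 0.0137) and a change of -1.23 ± 0.21 in EGFP+ cells, which did not pass (adjusted p = 0.116). edgeR called the difference (adjusted p = 0.000157) and both parts (adjusted p = 0.0214 in EGFP+ and 0.000188 in tdTomato+ cells), and Odc1 was the 1 gene that edgeR called in opposite directions in the 2 populations. The limma call stands close to its threshold: leaving out either UV EGFP+ library kept it, and leaving out any 1 of the other 6 libraries ended it, with differences from -3.60 to -2.97 and adjusted p from 0.00133 to 0.478. The summed melanocyte markers were higher with UV in tdTomato+ libraries. The melanocyte share of a mouse times its EGFP+ level of Odc1 came to 2.10% and 0.969% of the tdTomato+ level without UV. With UV it came to 1.03% and 1.29%. Whether melanocytes in the tdTomato+ gate have the EGFP+ level of Odc1 was not tested.

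Of 22 genes of polyamine synthesis, catabolism and use, 3 (Amd1, Amd2 and Oaz1) were listed at 0 in every library. Whether these zeros come from how reads were counted was not tested. The other 19 genes entered the test. In the difference, 8 were positive and 11 negative, with a median of -0.38 against -0.12 over all genes tested, of which 54.1% were negative; leaving out 1 library at a time gave medians from -0.53 to -0.16. Srm, which makes spermidine from putrescine, stood at 2666 and 2662 in tdTomato+ cells without UV and at 6013 and 5853 with UV, a change of 1.15 (adjusted p = 0.0566 in limma and 0.0141 in edgeR). In EGFP+ cells Srm stood at 4935 and 3595 without UV and at 3369 and 4198 with UV, and its difference was -1.32 ± 0.28 (adjusted p = 0.243). Sms, which makes spermine from spermidine, fell in tdTomato+ cells from 1391 and 1079 to 282 and 338, a change of -1.99 (adjusted p = 0.0373), with a difference of 1.55 ± 0.43 (adjusted p = 0.332). Smox, which oxidises spermine, was higher with UV in both populations, from 61.5 and 85.6 to 148 and 230 in EGFP+ and from 529 and 677 to 1344 and 1149 in tdTomato+ cells, with neither change called by limma (adjusted p = 0.289 and 0.266) and the EGFP+ change called by DESeq2 (adjusted p = 0.0316). Eif5a, the translation factor modified with spermidine, differed by -0.38 ± 0.20.

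The 19 genes with the next smallest p for the difference were not called by limma, with adjusted p from 0.0598 to 0.162, and all of them, like Odc1, had an edgeR adjusted p of 0.0463 or less. Among these 20 genes, 12 had negative and 8 positive differences. Limma called 16 of them in tdTomato+ cells and 2 in EGFP+ cells. In all 20 the log2 ratio of the populations in both UV mice lay on one side of that in both mice without UV. Such a separation was common: the ratio lay lower in both UV mice for 23% of genes tested and higher in both for 18.1%. The 20 genes were picked by their limma p on the same libraries. Their edgeR values, calls and separation are therefore no independent support.

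**Figure D2:**
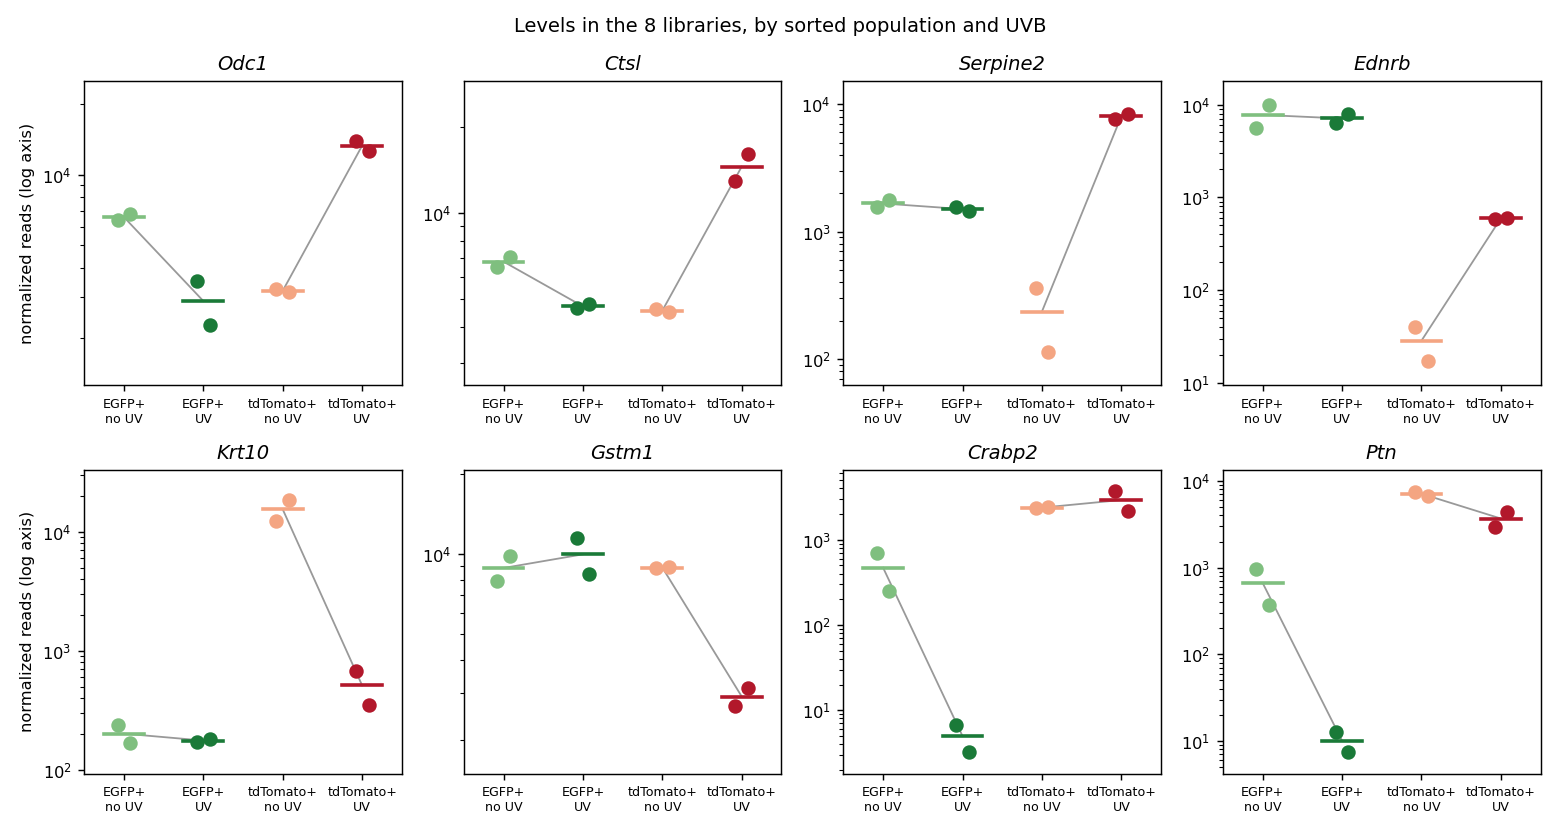
Normalized reads on a log axis in each of the 8 libraries for 8 of the genes with the smallest p for the difference; points are libraries, bars are the means of 2 mice and grey lines join the arms of a population. Odc1, Ctsl, Serpine2 and Ednrb lie higher with UV in tdTomato+ cells, Krt10 and Gstm1 lower in tdTomato+ cells, and Crabp2 and Ptn lower in EGFP+ cells.

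One group of genes rose in tdTomato+ cells and was not called in EGFP+ cells. Ctsl, at chr13:64361890-64370772 on the minus strand, encodes the lysosomal protease cathepsin L. It rose in tdTomato+ cells from 4616 and 4507 to 13012 and 16130, by 1.67 ± 0.16 (adjusted p = 0.0101). In EGFP+ cells Ctsl stood at 6490 and 7051 without UV and at 4645 and 4796 with UV, and its difference was -2.19 ± 0.22 (adjusted p = 0.0598). Like Odc1, it was the higher of the 2 populations in EGFP+ cells without UV and in tdTomato+ cells with UV.

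Serpine2, a secreted inhibitor of thrombin and urokinase at chr1:79794317-79858665 on the minus strand, rose in tdTomato+ cells from 359 and 113 to 7650 and 8440, by 5.31 ± 0.45 (adjusted p = 0.0101). Its EGFP+ values were 1551 and 1776 without UV and 1550 and 1457 with UV, a change of -0.14 (adjusted p = 0.985). The difference was -5.46 ± 0.63 (adjusted p = 0.0788). The actin regulators Arpc1b, a subunit of the Arp2/3 complex, and Wdr1, a cofactor of cofilin, gave differences of -1.74 ± 0.23 and -1.64 ± 0.22. Arpc1b rose in tdTomato+ cells from 4746 and 4485 to 15107 and 12208 (adjusted p = 0.0137), and its EGFP+ values lay between 6789 and 8501. Dhcr7, the last enzyme of cholesterol synthesis, rose in tdTomato+ cells from 334 and 358 to 1046 and 819 (adjusted p = 0.0382), while EGFP+ cells held 2224 and 2203 without UV and 1399 and 1278 with UV.

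Chil3, a chitinase-like protein of activated macrophages, was at 0 reads in both tdTomato+ libraries without UV and at 675 and 242 with UV. It was at 0 in both UV EGFP+ libraries, so the size of its difference depends on the constant added before the logarithm and is not given.

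A second group fell in tdTomato+ cells. Krt10, the keratin of suprabasal epidermis at chr11:99385254-99397449 on the minus strand, fell there from 12359 and 18394 to 673 and 351, a change of -4.95 ± 0.37 (adjusted p = 0.0101). In EGFP+ cells Krt10 stayed between 167 and 236, and the difference was 4.78 ± 0.52 (adjusted p = 0.0706). Ccl27a, a chemokine of keratinocytes that draws T cells to skin, fell in tdTomato+ cells from 11665 and 7837 to 1548 and 1429 (adjusted p = 0.0292), with 41.6 to 100 reads in EGFP+ cells. Tnfrsf19, a receptor known as TROY, fell from 1276 and 1179 to 128 and 125 in tdTomato+ cells (adjusted p = 0.0101) and stood between 276 and 468 in EGFP+ cells.

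Gstm1, a glutathione transferase, had nearly the same level in both populations without UV, at 7891 and 9820 in EGFP+ and 8831 and 8948 in tdTomato+ cells. With UV it was at 11524 and 8412 in EGFP+ cells and had fallen to 2682 and 3134 in tdTomato+ cells (adjusted p = 0.0211), a difference of 1.78 ± 0.28. Pkib, an inhibitor of protein kinase A, fell in tdTomato+ cells from 1192 and 1049 to 137 and 58.4 (adjusted p = 0.02) and stood between 518 and 691 in EGFP+ cells. The melanocyte share times the EGFP+ level came to 15.6% and 85.4% of what remained of Pkib in the 2 UV tdTomato+ libraries, and for Gstm1 to 17.6% and 19.4%.

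Hcfc1r1, Atpif1 and Dgcr6 converged: their levels were further apart without UV than with UV. Atpif1, the inhibitor of mitochondrial ATP synthase, stood at 5045 and 4330 in EGFP+ and 17356 and 18693 in tdTomato+ cells without UV. With UV it stood at 7236 and 7644 in EGFP+ and at 10885 and 11531 in tdTomato+ cells, a difference of 1.36 ± 0.20 in which limma called neither part (adjusted p = 0.181 and 0.0925) and DESeq2 called both (adjusted p = 0.0387 and 0.0204). Hcfc1r1 went from a log2 ratio of EGFP+ to tdTomato+ of -2.15 and -2.13 without UV to 0.05 and 0.14 with UV. Dgcr6 went from -1.64 and -1.56 to -0.01 and 0.05.

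A last and smaller group fell in EGFP+ cells. Crabp2, which carries retinoic acid to its nuclear receptor, lies at chr3:87948693-87953372. It fell in EGFP+ cells from 693 and 248 to 6.71 and 3.23, a change of -6.19 ± 0.54 (adjusted p = 0.018), while tdTomato+ cells held 2360 and 2405 without UV and 3687 and 2169 with UV. Its difference was -6.43 ± 0.76 (adjusted p = 0.0788). Ptn, the secreted growth factor pleiotrophin at chr6:36714924-36810179 on the minus strand, fell in EGFP+ cells from 956 and 375 to 12.6 and 7.54 (adjusted p = 0.0161). In tdTomato+ cells Ptn stood at 7492 and 6753 without UV and 2971 and 4403 with UV, and the difference was -4.82 ± 0.64 (adjusted p = 0.124). Col6a1, a chain of collagen VI, was the remaining EGFP+ fall, from 99.8 and 104 to 0.839 and 0 (adjusted p = 0.0375), with 655 and 705 against 238 and 224 in tdTomato+ cells. For these 3 genes the tdTomato+ level was higher than the EGFP+ level in all 4 mice. Of 17 fibroblast and matrix genes, 5, Col6a1 among them, had both UV EGFP+ libraries below both without UV. Over all genes tested that share was 20.7%. In 1 of the 17 both UV EGFP+ libraries lay above, against 12.7% of all genes. The collagen gene Col1a1 stood in EGFP+ cells at 20.8 and 3.80 against 0.839 and 1.08. Dcn, the other fibroblast marker, did not fall there, with 4.16 and 11.4 against 6.71 and 10.8. The summed fibroblast list in EGFP+ libraries was 45986 and 51040 without UV and 55747 and 55542 with UV. In tdTomato+ libraries it was 48609 and 59563 without UV and 44434 and 65357 with UV. The list did not separate the populations, so its sum is no measure of fibroblast content here. Krt14 in EGFP+ libraries was at 203 and 233 against 227 and 341. The part of other cells in these falls was not tested.

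Factors that keratinocytes and other cells secrete toward melanocytes, or that process them, included genes with a similar pattern. Ece1, which activates endothelins, stood in EGFP+ cells at 94.0 and 71.3 without UV and at 6.71 and 1.08 with UV, and in tdTomato+ cells at 1195 and 1409 against 1496 and 1389. Hbegf, a ligand of the EGF receptor, stood in EGFP+ cells at 348 and 245 against 34.4 and 99.2, and in tdTomato+ cells at 2914 and 3273 against 4791 and 4915. edgeR called 3 of the 27 paracrine genes tested lower in the difference, Ece1, Hbegf and Tgfa, and 0 higher, where 0.315% of all genes were lower and 0.0996% higher; limma called 0 of them. The list's median difference was -1.02, against -0.12 over all genes.

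Melanocyte genes had large negative differences. The 8 markers summed above belong to the melanin and lineage lists, so a shared movement of lists and markers is in part built in. In EGFP+ cells Dct, an enzyme of eumelanin synthesis, stood at 282004 and 345157 without UV and at 238190 and 249432 with UV. In tdTomato+ cells it rose from 2733 and 1270 to 10214 and 17032 (adjusted p = 0.0211), which gave a difference of -3.18 ± 0.50. Mlana, a melanosome protein, stood at 12179 and 12447 against 30003 and 23733 in EGFP+ cells and rose from 145 and 97.1 to 1012 and 1790 in tdTomato+ cells (adjusted p = 0.0101), with a difference of -2.38 ± 0.43. Of 26 genes of melanin synthesis and melanosomes, 22 had negative differences, where 54.1% of all genes did, with a median of -2.16 against -0.12. limma called 9 as risen in tdTomato+ cells, where it called 0.349% of all genes, and 0 in EGFP+ cells. edgeR called 8 of them lower in the difference (Dct, Gpnmb, Mlana, Mlph, Pmel, Slc45a2, Syngr1 and Tyrp1), against 0.315% of all genes.

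Among 19 melanocyte lineage regulators, 15 were negative with a median of -1.02, which was -0.45 without the first tdTomato+ library of the mock arm, -0.59 without the second UV tdTomato+ library and -0.65 without the first UV EGFP+ library. Ednrb, the endothelin receptor of melanoblasts at chr14:103814615-103844508 on the minus strand, rose in tdTomato+ cells from 40.1 and 17.1 to 586 and 605 (adjusted p = 0.0101) and stood between 5522 and 9951 in EGFP+ cells, a difference of -4.53 ± 0.59. When the melanocyte share of each mouse was subtracted from its tdTomato+ library, the median difference became 0.21 for the melanin list and 0.15 for the lineage list. That subtraction was chosen after the data were seen, and the share is set by 8 genes of these lists, so the medians near 0 are in part built in. For Dct, Ednrb, Kit, Mlana, Slc45a2 and Tyr the amount subtracted exceeded the whole tdTomato+ level in at least 1 library, so the size of their differences after subtraction is set by the floor at 0 and is not given here. Syngr1, a synaptic vesicle protein that is no part of the share, went from -2.50 to -1.64. Odc1, Ctsl, Serpine2 and Krt6a had differences of -3.29, -2.18, -5.53 and -3.32 after subtraction. For them the amount subtracted was at most 7.06% of the tdTomato+ level in any library, so little change was possible. After the subtraction limma called 0 differences, and Odc1 was no longer called.

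**Figure D3:**
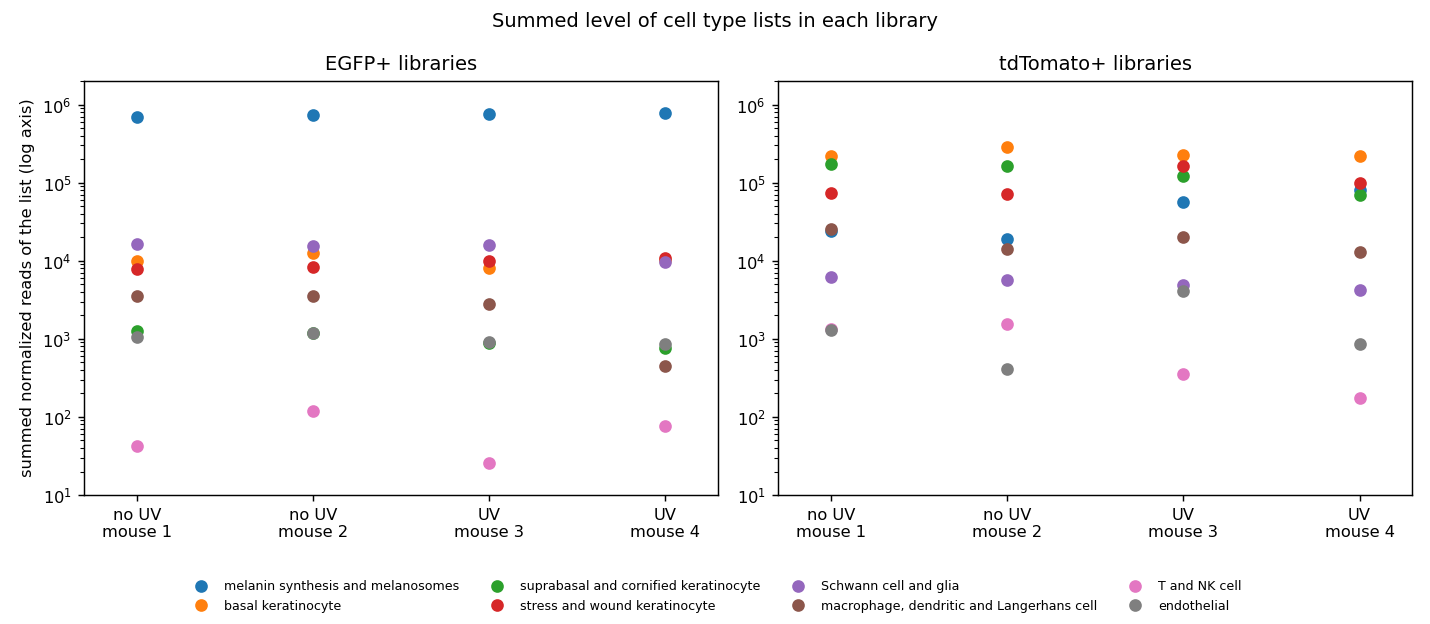
Summed normalized reads, on a log axis, of 8 gene lists in each library, EGFP+ cells left and tdTomato+ cells right, with 1 point per mouse. In tdTomato+ libraries the melanin list lies at 18701 to 24115 without UV and 56226 to 80138 with UV, and the T and NK cell list lies lower with UV, while the basal keratinocyte list stays between 219150 and 287750.

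Of the keratinocyte lists, the suprabasal and the stress lists had members called by limma in tdTomato+ cells, and the basal and hair follicle lists had 0 in either direction; 0 members of the 4 lists were called in EGFP+ cells. Of 20 suprabasal and cornified genes tested, 15 had positive differences, with a median of 1.10 (0.53 without the second and 1.65 without the first UV tdTomato+ library, 0.71 without the second tdTomato+ library of the mock arm); the median UV change was -1.81 in tdTomato+ and -0.48 in EGFP+ cells. Limma called 2 as fallen in tdTomato+ cells, against 0.21% of all genes. Krt1, the partner of Krt10, went there from 5874 and 10598 to 54.1 and 16.7 (adjusted p = 0.0133) and was under 15 in every EGFP+ library. Of 20 stress and wound genes tested, 13 were negative and 2 were called as risen in tdTomato+ cells, against 0.349% of all genes. Krt6a, the keratin of activated epidermis, rose there from 1488 and 3043 to 39195 and 22214 (adjusted p = 0.0292), with 17.2 to 43.6 reads in EGFP+ cells. Fabp5, a fatty acid carrier, is expressed in both populations and rose in tdTomato+ cells from 6111 and 10368 to 38331 and 23038 (adjusted p = 0.0382), against 7136 and 7618 to 8686 and 10332 in EGFP+ cells. The 15 basal genes were balanced, with 8 positive and 7 negative.

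Several lists of growth and metabolism had mostly negative differences, which come from a higher level with UV in tdTomato+ cells, a lower one in EGFP+ cells, or both. All but 1 of 16 amino acid transporters had a negative difference, with a median of -1.19, and 11 had a lower ratio in both UV mice than in both without UV, against 23% of all genes. Slc7a5, the large neutral amino acid transporter, stood at 4303 and 5591 against 2597 and 2558 in EGFP+ cells and at 288 and 498 against 797 and 607 in tdTomato+ cells, a difference of -1.81 ± 0.42 (adjusted p = 0.265). Slc1a5, a glutamine transporter, gave -2.75 ± 0.78 and Slc7a1, an arginine transporter, -1.24 ± 0.44. No single transporter was called by limma or by edgeR.

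In the unfolded protein response, which adjusts folding capacity in the endoplasmic reticulum, 16 of 19 genes were negative with a median of -0.72. Xbp1, its transcription factor, stood at 4930 and 4375 against 4422 and 3151 in EGFP+ cells and at 3406 and 2822 against 4966 and 4331 in tdTomato+ cells (difference -0.90 ± 0.30, adjusted p = 0.389). Of 22 genes of the Myc network and ribosome biogenesis, 19 were negative with a median of -0.49, which was -0.037 without the first UV EGFP+ library. Rrs1, a ribosome assembly factor, gave -1.32 ± 0.41, and Ldha, lactate dehydrogenase A, gave -1.13 ± 0.27 and rose in tdTomato+ cells from 12669 and 12780 to 33674 and 24629 (adjusted p = 0.0397). The lysosome and vacuolar ATPase list had 19 of 25 negative, with a median of -0.55 (UV change 0.07 in EGFP+ and 0.64 in tdTomato+ cells). Limma called 4 of its genes as risen in tdTomato+ cells, where it called 0.349% of all genes. Ctsd, the protease cathepsin D, went there from 4810 and 4422 to 17064 and 12611 (adjusted p = 0.028) against 5232 and 7868 to 7127 and 6724 in EGFP+ cells. Of 22 glycolysis genes 15 were negative, and Pkm, pyruvate kinase, rose in tdTomato+ cells from 7852 and 8173 to 18847 and 16561 (adjusted p = 0.0232).

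**Figure D4:**
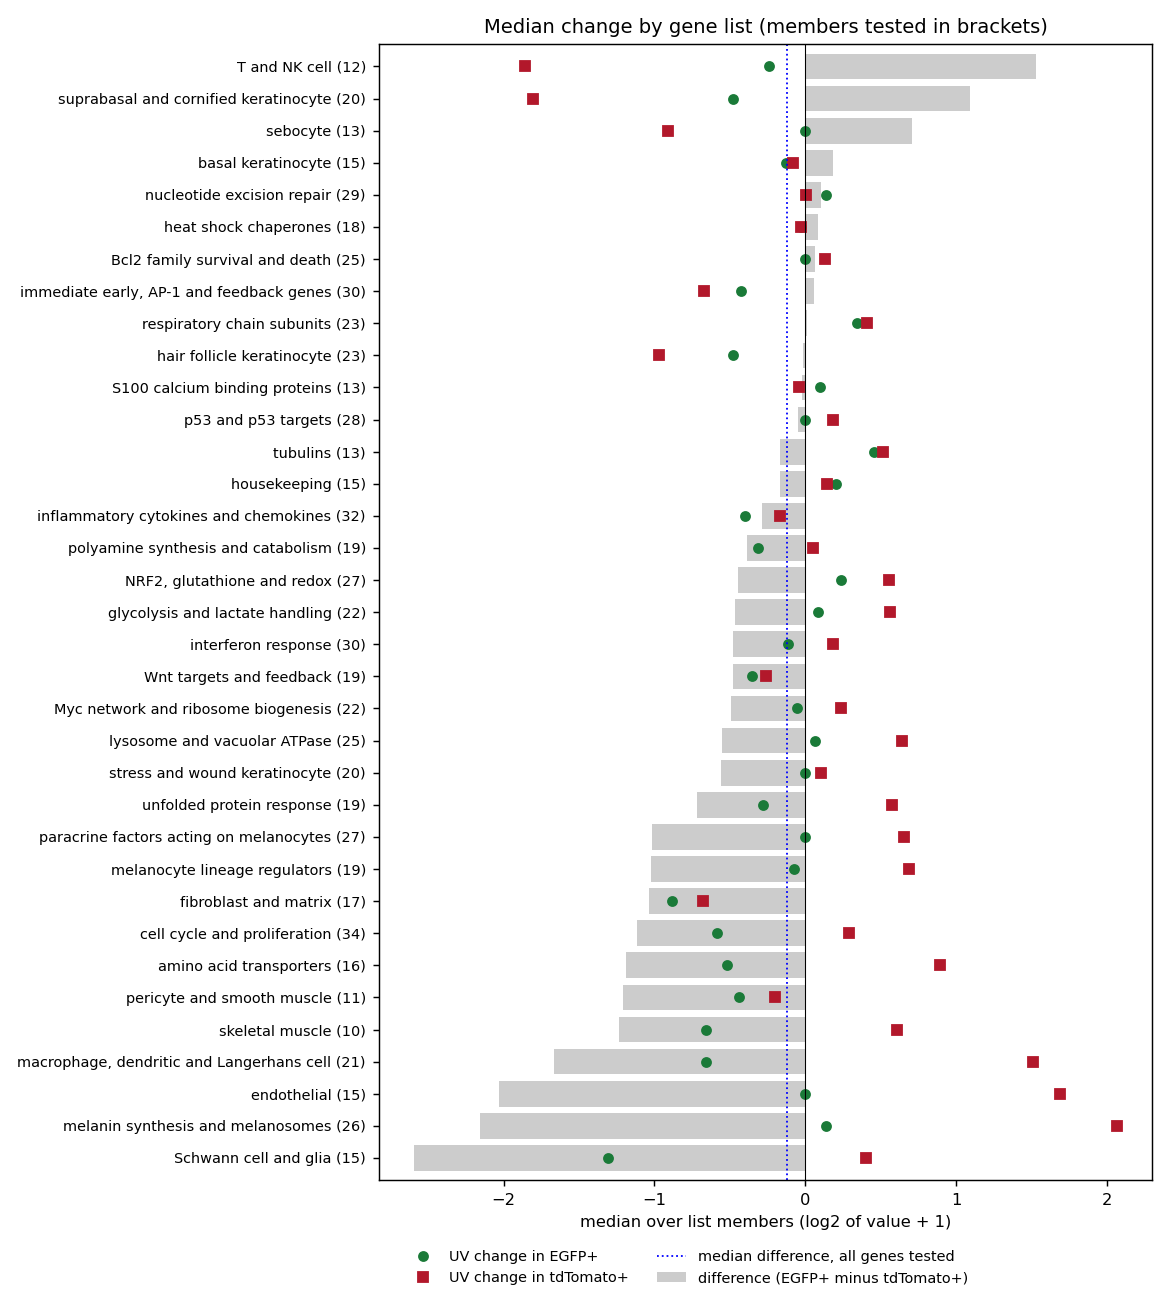
Median over the members of each list with at least 10 genes tested: grey bars give the difference, green circles the UV change in EGFP+ cells and red squares the UV change in tdTomato+ cells, in log2 units; the dotted line is the median difference of all genes tested, -0.12. Bars to the left of it, such as that of the melanin list at -2.16, are lists whose UV change is lower in EGFP+ than in tdTomato+ cells, and the respiratory chain list, with both changes above 0, has a bar near 0.

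Cell cycle genes also had mostly negative differences, with 30 of 34 negative and a median of -1.11, but this depended on single EGFP+ libraries. Without the second UV EGFP+ library the median difference was 0.30, and without the first it was -2.89. Without the first EGFP+ library of the mock arm it was -0.34, and without the second of that arm -2.31. Ccnd1, the G1 cyclin D1, stood in EGFP+ cells at 734 and 430 against 137 and 38.8 and in tdTomato+ cells at 1402 and 1586 against 1744 and 1586, a difference of -3.08 ± 0.76 (adjusted p = 0.265). Ccnd2, its paralog, differed the other way, by 0.77 ± 0.23 (adjusted p = 0.357). Mcm5 and Mcm6, helicase subunits of DNA replication, gave -1.14 ± 0.44 and -0.99 ± 0.39.

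Lists of other cell types also differed, mostly at low counts. Of 15 Schwann cell and glia genes 14 were negative with a median of -2.60, and leaving out 1 library at a time gave medians from -3.88 to -1.32, the latter without the second tdTomato+ library of the mock arm. Mbp, myelin basic protein, stood at 74.9 and 31.4 in EGFP+ cells without UV and at 0 in both with UV, against 387 and 354 to 262 and 117 in tdTomato+ cells. In tdTomato+ cells the Langerhans cell marker Cd207 was at 1237 and 271 without UV and at 0 in both with UV (adjusted p = 0.0211), while the macrophage complement gene C1qa was at 0 in both without UV and at 151 and 25 with UV (adjusted p = 0.0476). Neither gene exceeded 1.08 reads in an EGFP+ library. T and NK cell genes summed to 1341 and 1552 in tdTomato+ libraries without UV and to 350 and 175 with UV, against 26.0 to 118 in EGFP+ libraries, and limma called 0 of 12, while DESeq2 called Nkg7 in tdTomato+ cells (adjusted p = 0.00635).

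Some immune genes were detected in both populations. B2m, the light chain of MHC class I, stood at 55817 and 35708 against 55289 and 70883 in EGFP+ cells and at 49826 and 43334 against 21880 and 22504 in tdTomato+ cells, a difference of 1.55 ± 0.31 (adjusted p = 0.225, and 0.0412 in edgeR). Cxcl10, an interferon-induced chemokine, fell in tdTomato+ cells from 5709 and 6056 to 542 and 518 (adjusted p = 0.0255), and its EGFP+ values of 678 and 1437 without UV overlapped those of 442 and 1077 with UV. Its difference was 2.95 ± 0.64 (adjusted p = 0.243). Hspa1b, an inducible heat shock chaperone, fell in tdTomato+ cells from 8273 and 11801 to 1329 and 1368 (adjusted p = 0.0101) and stood in EGFP+ cells at 3678 and 6250 against 2909 and 2657.

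Shared changes were sought by size, since limma called no gene in both populations. A gene counted as shared if it had a mean of at least 50, a change of at least 1 log2 unit in the same direction in both populations and no overlap between UV and no UV libraries in either; no test attaches to this. By this rule 53 genes were higher with UV in both (0.492% of 10770) and 221 were lower in both (2.05%). Of the 221, 137 had under 5 normalized reads in the second UV EGFP+ library and 85 in the first. edgeR called 11 genes in both populations in the same direction. Among them, Slpi, Tmem176a and Tmem176b rose in both, and Sema3d, Fhit, Frem2, H2-Aa, Scin, Calm4 and Thbs1 fell in both.

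Slpi, a secreted inhibitor of neutrophil elastase, went from 9.98 and 3.80 to 49.5 and 42.0 in EGFP+ cells and from 1119 and 595 to 5625 and 6854 in tdTomato+ cells. The log2 ratio of the populations for Slpi lay between -7.32 and -6.67 in all 4 mice. Tmem176b, a membrane protein of intracellular vesicles, went from 1114 and 1352 to 3744 and 4211 in EGFP+ cells and from 1552 and 1230 to 2633 and 3682 in tdTomato+ cells. Phlda3, a p53 target that restrains Akt and was picked out after its values were seen, went from 205 and 301 to 1018 and 1092 in EGFP+ and from 1707 and 1426 to 4193 and 2899 in tdTomato+ cells, with limma adjusted p of 0.079 and 0.133; edgeR called the EGFP+ change (adjusted p = 0.00426).

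By size of the lesser change, Ddit4l led the shared higher genes. Ddit4l, an inhibitor of mTORC1 signalling, stood at 19.1 and 1.90 against 92.3 and 176 in EGFP+ cells and at 27.4 and 32.8 against 394 and 276 in tdTomato+ cells. Rnaset2b and Ldhd followed, and Rnaset2b rested on mouse 4, with 338 and 206 reads in its libraries against 9.23 and 4.58 in those of mouse 3. Sema3d, a secreted guidance cue, led the shared lower genes, with 252 and 46.6 against 5.03 and 1.08 in EGFP+ cells and 442 and 768 against 13.7 and 16.7 in tdTomato+ cells. Fhit, H2-Eb1 and Bach2 were the others. H2-Eb1, a chain of MHC class II, stood at 812 and 430 against 6.41 and 154 in tdTomato+ cells, so its 2 UV mice differed widely.

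Some lists had the same direction in both populations at small size. Respiratory chain subunits had a median UV change of 0.34 in EGFP+ and 0.41 in tdTomato+ cells and a median difference of 0.01, and 19 and 18 of the 23 had both UV libraries above both without UV, against 12.7% and 21.6% of all genes tested. Atp5b, the beta subunit of ATP synthase, stood at 41840 and 38052 against 43792 and 48572 in EGFP+ cells and at 33241 and 30834 against 49622 and 49017 in tdTomato+ cells. Immediate early, AP-1 and feedback genes had median changes of -0.43 in EGFP+ and -0.67 in tdTomato+ cells, but the EGFP+ median was 0.016 without the first UV EGFP+ library and -0.86 without the second; with all libraries, 12 and 21 of 30 lay wholly below the libraries without UV, against 20.7% and 24.5% of all genes. Zfp36, which destabilises inflammatory mRNAs, stood at 4242 and 3790 against 1795 and 1271 in EGFP+ cells and at 26239 and 32336 against 17934 and 18992 in tdTomato+ cells. limma called 0 genes of the 2 lists in either population, while edgeR called Zfp36 in EGFP+ cells (adjusted p = 0.00582) and DESeq2 called Atp5b in tdTomato+ cells (adjusted p = 0.0294).

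Neither p53 targets nor nucleotide excision repair genes, both tied to UV damage, separated the populations as lists. The 28 p53 genes had 13 positive and 15 negative differences with a median of -0.05, and the 29 repair genes 16 positive and 13 negative with a median of 0.11. Leaving out 1 library at a time gave medians from -0.32 to -0.0084 and from -0.04 to 0.27. Within the p53 list, Eda2r, a receptor of the TNF family, stood at 2.50 and 5.70 against 155 and 41.0 in EGFP+ cells and at 233 and 520 against 232 and 115 in tdTomato+ cells, a difference of 5.15 ± 1.23 (adjusted p = 0.265). Aen, an apoptosis-enhancing nuclease, differed by -1.29 ± 0.35. Bax, the death effector of the Bcl2 family, stood at 1925 and 1882 against 3758 and 4101 in EGFP+ cells and at 1429 and 1422 against 1737 and 1881 in tdTomato+ cells. Its change of 1.04 in EGFP+ cells was called by edgeR (adjusted p = 0.049) and DESeq2 (adjusted p = 0.000148) and not by limma (adjusted p = 0.114), and its difference of 0.70 ± 0.24 was called by none of them (limma adjusted p = 0.404).

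The redox list of 27 genes had 19 negative differences and a median of -0.44, which was -0.13 without the second UV EGFP+ library, with members on both sides. Gclc and Txnrd1, targets of NRF2, differed by -1.31 ± 0.39 and -1.11 ± 0.33, and Gpx4, which reduces lipid peroxides, by 0.91 ± 0.22. Txnrd1 stood at 3255 and 3216 against 1611 and 2151 in EGFP+ cells and at 1053 and 776 against 1110 and 1145 in tdTomato+ cells.

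Opposite changes by the same size rule were fewer than shared ones: 27 genes were higher in EGFP+ and lower in tdTomato+ cells with UV (0.251% of 10770), and 63 were lower in EGFP+ and higher in tdTomato+ cells (0.585%). Odc1 belongs to the second set. Of those 63, 36 had under 5 normalized reads in the second UV EGFP+ library, against 15 in the first. Leaving out that second library gave 53 and 59 genes.

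Ranked by the lesser change, the first set was led by Mme, neprilysin, a peptidase of the cell surface. Mme stood at 0.832 and 45.6 against 125 and 193 in EGFP+ cells and at 192 and 91.3 against 7.33 and 2.78 in tdTomato+ cells, a difference of 8.65 ± 2.05 (adjusted p = 0.265). Nudt17, Kazald1 and Zfp729b followed, with differences from 3.51 to 5.62 and adjusted p of 0.387 to 0.475. The second set by this ranking was led by Sema3a, a repulsive guidance cue, which stood at 240 and 316 against 129 and 3.23 in EGFP+ cells and at 0 and 2.85 against 57.7 and 16.7 in tdTomato+ cells. Irf8, a transcription factor of myeloid cells, stood at 121 and 154 against 37.8 and 1.08 in EGFP+ cells and at 10.8 and 1.43 against 64.1 and 36.2 in tdTomato+ cells. Nim1k and Gprc5a were the others, and each was at 0 in the second UV EGFP+ library. Without that library the difference was -5.12 for Sema3a, -5.03 for Irf8, -3.22 for Nim1k and -3.12 for Gprc5a, against -7.59, -7.14, -6.67 and -4.79 with it. These low-count genes carry standard errors of 1.46 to 2.76. Among the genes named from either set, Odc1 had the smallest error, at 0.30.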

How the data were processed

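RNA was measured in 8 libraries, EGFP+ and tdTomato+ cells of 4 mice, made from 1 µg of total RNA with poly(A) selection by a kit that does not keep strand, per the labels' protocols. The submitters' processing notes name FastQC, TopHat2 2.0.12, Cufflinks 2.2.1, DESeq2 1.14.1 and mm10. For the read counter and the annotation, nothing is stated in the labels or notes.

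The deposited signal values are normalized counts, which the authors made by dividing each library's reads by its size factor, as the values show. After multiplying back, all 195368 values were whole reads within 0.01 (100%). The plan named limma for normalized values, and it was kept. limma 3.58.1 in R 4.3.3 was fitted to log2(value + 1) with 4 group means over all 8 libraries, moderated with a trend (4 residual degrees of freedom, a median of 8.4 after moderation), with Benjamini-Hochberg adjustment over 18070 genes. edgeR 4.0.16 and DESeq2 1.42.0 were run on the recovered reads as alternatives. Fold changes on this scale understate those of low genes. With 2 against 2, the smallest p of an exact permutation test is 0.333. The fit was also run on simulated data, with 50 genes changed in EGFP+ cells at each size. The changed genes had a mean of at least 50 in both groups without UV. No gene changed in tdTomato+ cells, and libraries were drawn independently, so lower changed genes and effects of mouse are not covered. The fit recovered 0 of 50 differences of 1 log2 unit, 6 of 2, 21 of 3 and 27 of 4, with 0 false calls. A gene that limma did not call can therefore still differ. P-values rest on the spread between the 2 libraries of a group, pooled over the 4 groups and moderated across genes. The EGFP+ and tdTomato+ libraries of a mouse were treated as independent in the main fit.

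The same numbers in both populations are the same mouse, per the labels, so the libraries are paired; deviations from the group means correlated at 0.141 for mice 1 and 2 and at 0.0988 for mice 3 and 4 over 10770 genes. With mouse as a block, 1 difference was called, as without it.

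Genes named were Odc1, the 20 genes with the smallest p of the difference among those with a mean of at least 5 in 1 group, the 4 leading genes of each class by size, and up to 4 members of each list; others were named after their values were seen, as markers or from edgeR calls (Mitf, Sox10, Krt14, Ptprc, Phlda3, Smox, Eif5a, Tyr, Pmel, Tyrp1, Mlph, Gpnmb, Thbs1, Calm4, Scin, Frem2, Tmem176a and Tmem176b). The comparison described, the genes, the lists and the tests were chosen with earlier results of these data known. One gene is not reported here. Coordinates are RefSeq's on GRCm38.p6, and 0 value columns lacked a sample.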

Additional observations from a re-analysis of the deposited data

Results flagged for a closer look

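Odc1 was the 1 gene whose UV change differed between the populations by the test of the difference, at -3.29 ± 0.30 (limma, adjusted p = 0.0496). Both mice of each arm showed it: with UV the EGFP+ level was below both EGFP+ levels without UV, and the tdTomato+ level was above both. What lies behind the opposite directions was not tested.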

How the results depend on the processing

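In limma, 1 difference and 3 EGFP+ changes were called, and 63 rises and 38 falls in tdTomato+ cells; these counts depended on the settings. A pseudocount of 0.1 gave 0, 1 and 29, and one of 5 gave 0 differences and 211 tdTomato+ changes. No filter gave 0 differences, and a mean of at least 50 gave 3 and 25 in EGFP+ cells. Quantile normalization gave 14 (4 higher and 10 lower), 16 and 218, and rescaling without the 20 most abundant genes gave 2 differences. On recovered reads edgeR gave 75, 120 and 240, with 11 genes in both populations in the same direction and 1 in opposite directions, and DESeq2 gave 286, 355 and 617, with 39 and 9. Without the trend 0 differences and 24 EGFP+ changes were called. With each population fitted alone, 0 EGFP+ and 183 tdTomato+ changes were called. Without mouse 1 all 3 counts were 0, and genes shared and opposite by size numbered 452 and 231 against 274 and 90.

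Leaving out 1 library at a time gave 0 to 1119 differences, 0 to 1695 EGFP+ changes and 0 to 164 tdTomato+ changes. It gave 0 to 8 genes called in both in the same direction, 0 to 7 in opposite directions, 277 to 438 shared by size and 87 to 271 opposite by size. The largest counts came without the first UV EGFP+ library; without the second, 4 differences were called. In these fits the lone library is assumed to vary like the other groups, and 12 to 904 genes with no residual spread were dropped. With mouse as a replicate block, 1 difference was called, and the adjusted p of Odc1 was 0.0447.

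Subtracting the melanocyte share, chosen after seeing the data, left 0 differences called (Odc1 adjusted p = 0.0538). It turned Mlana to 2.69, Slc45a2 to 0.83, Tyr to 3.87 and Mlph to 2.08. For Mlana, Slc45a2 and Tyr the amount subtracted exceeded the whole level of at least 1 tdTomato+ library, so these sizes depend on the floor at 0 and the pseudocount. Cox4i1's tdTomato+ change, with libraries left out in turn, lay between -0.15 and 0.013, the latter without the second tdTomato+ library of the mock arm. The other gene values kept their direction in the settings run. Odc1 was called in 9 of 21 alternatives, and not with a pseudocount of 0.1 (adjusted p = 0.0791) or 5 (0.0639), no filter (0.0671), no trend (0.107) or mouse 1 left out (0.597). Beyond the share's construction, the cause of these changes was not tested. Genes with a mean of 1 to 50 had a median standard error of 1.67, which can hide differences of several log2 units.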
